A study of Mus musculus with 60 samples.

Results

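The proximal maxilla, the rear part of the embryonic upper jaw, was compared between E14.5 and E13.5, the days of mouse gestation. The members were the 3 arrays whose titles give proximal maxilla at E14.5 and the 3 that give it at E13.5, which are 6 of the 60 arrays in the study. All 18193 genes with a probe set of their own were measured on each array. The study dissected upper and lower jaws of C57Bl/6 embryos into proximal and distal pieces at E10.5 to E14.5, with 3 arrays in each of 20 groups, and set out to profile jaw development over time and place. No group carried a mutation, transgene or treatment. The tissue labels call the pieces proximal bone and distal bone, and nothing in them tells if a group's 3 arrays stem from separate embryos or litters, so p-values measure the spread between arrays only. The 6 arrays share a labelled batch with the proximal maxilla at E12.5 and the distal maxilla at E13.5 and E14.5, which serve as comparisons here. The proximal mandible at these ages belongs to another labelled batch.

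Most of the maxilla is built from mesenchyme that descends from the cranial neural crest. Its bones form directly in that mesenchyme: progenitors become osteoblasts, which deposit collagen and then mineralise it, and some become buried as osteocytes. The palatal shelves, the nasal lining, muscles, nerves and vessels develop beside them, so that a dissected piece holds many cell types. In such bulk tissue fewer cells of a type and less RNA per cell cannot be told apart.

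Values are log2 array signals, so that a difference of 1 is a change of 2-fold, and a difference is E14.5 minus E13.5 unless another is named. A gene is called where the limma test across all genes gave a Benjamini-Hochberg adjusted p under 0.05. Of the 18193 genes, 972 were called higher at E14.5 (5.34%) and 2080 lower (11.4%). Most calls were small: 2536 of the 3052 were under 0.5 on the log2 scale, and 82 reached 2-fold, of which 57 were higher and 25 lower. The 3 arrays of E14.5 all lay above those of E13.5 for 12.4% of genes and all below for 21.6%. The median over all genes was -0.02. Arrays of the same age correlated at 0.9970 or more, and arrays of different ages at 0.9942 to 0.9956. Called lower genes numbered 1251 without the E14.5 replicate 3 and 1266 without the E13.5 replicate 1, and with batch 2 alone 1540 genes were called higher (8.46%) and 2780 lower (15.3%), the shares against which list counts from batch 2 alone are to be read.

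**Figure D1:**
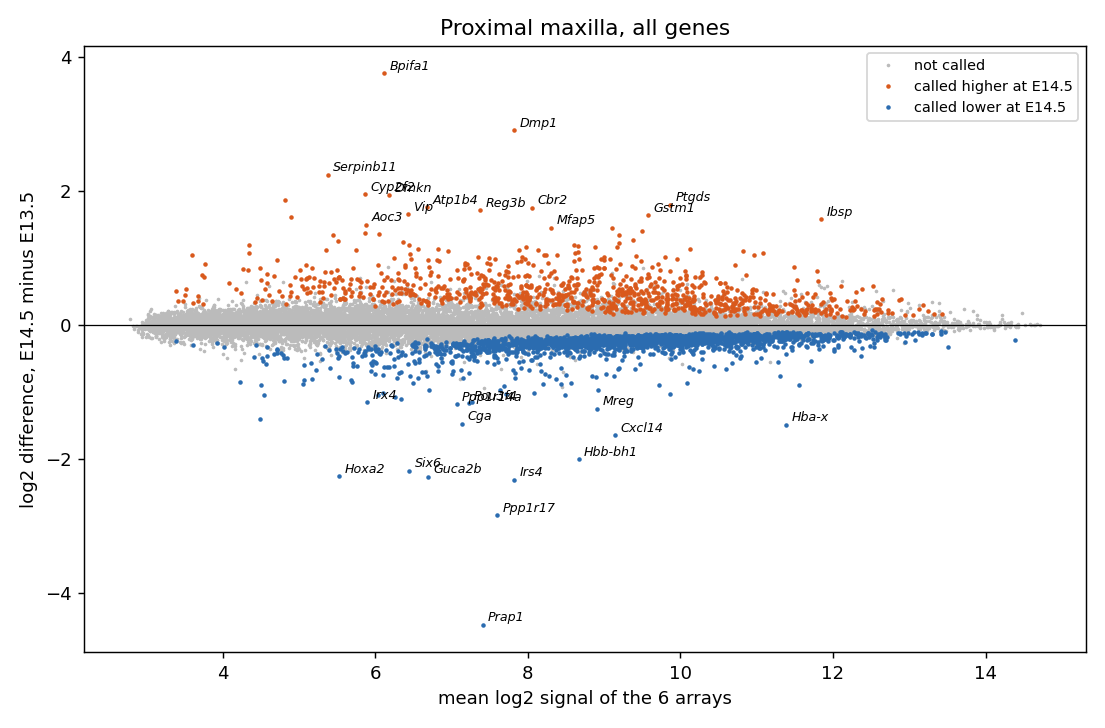
Each point is a gene, with its mean log2 signal over the 6 arrays on the horizontal axis and its log2 difference between the ages on the vertical axis; called genes are coloured and the genes named by rule are labelled. Prap1 lies farthest below 0 at -4.48 and Bpifa1 farthest above at 3.75.

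Genes of bone formation rose. Of 11 measured bone genes, 8 were called higher (72.7%, against 5.34% of all genes) and 0 lower. The median difference of the list was 0.90. The promoters of 3 of the called genes are shown because these genes rose together: each sequence runs 5′ to 3′ from 250 bases before to 50 bases after the RefSeq start site in GRCm38.p6.
Ibsp (chr5:104299037-104299336, plus strand): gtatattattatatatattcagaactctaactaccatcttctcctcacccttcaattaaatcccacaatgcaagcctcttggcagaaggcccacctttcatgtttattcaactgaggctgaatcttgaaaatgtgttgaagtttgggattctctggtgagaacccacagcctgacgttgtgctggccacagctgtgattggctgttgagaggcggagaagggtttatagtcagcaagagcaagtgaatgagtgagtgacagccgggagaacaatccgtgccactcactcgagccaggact
Dmp1 (chr5:104197325-104197624, plus strand): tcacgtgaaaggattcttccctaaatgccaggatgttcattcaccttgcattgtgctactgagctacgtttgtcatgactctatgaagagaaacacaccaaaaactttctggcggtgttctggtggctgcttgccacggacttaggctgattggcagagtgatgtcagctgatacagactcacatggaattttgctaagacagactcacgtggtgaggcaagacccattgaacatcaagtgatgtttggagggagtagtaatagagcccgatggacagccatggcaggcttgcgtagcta
Ifitm5 (chr7:140950194-140950493, minus strand): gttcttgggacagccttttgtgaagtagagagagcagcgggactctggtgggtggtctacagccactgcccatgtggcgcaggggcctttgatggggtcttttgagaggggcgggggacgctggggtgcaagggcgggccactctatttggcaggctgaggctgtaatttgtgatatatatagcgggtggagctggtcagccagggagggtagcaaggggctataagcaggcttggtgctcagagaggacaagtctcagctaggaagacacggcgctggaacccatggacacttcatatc
For Dmp1 the first of 2 starts in the table is shown. Both strands were searched for TGTGGT, the core of the Runx motif, and for TAATTA, a homeodomain motif that reads the same on both strands. Each of the 3 promoters held 0 matches to either, so no base is in capitals. Over all 32851 promoters of this length in the table, 16.8% held TGTGGT and 5.3% held TAATTA. The absence of these letters from the windows says nothing about the factors.

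Dmp1 encodes a phosphoprotein of osteocytes and mineralising matrix. Its signals were 6.71, 6.32 and 6.08 at E13.5 and 9.28, 9.21 and 9.31 at E14.5, after 3.79, 4.37 and 4.22 at E12.5. The ages did not overlap, which the rule for named genes required. Dmp1 rose by 2.90 ± 0.25 (SE, n = 3 arrays per age), a 7.45-fold change (limma adjusted p = 4.28e-12). Ibsp, bone sialoprotein, binds mineral in new bone. Its signals were 11.26, 10.87 and 11.04 at E13.5 and 12.43, 12.66 and 12.79 at E14.5. It rose 2.97-fold (1.57 ± 0.29, limma adjusted p = 0.000107). At E12.5 its 3 arrays lay between 2.96 and 3.29, below the floor of 4.78, which is the highest lower quartile of any array and below which levels have no order. Dmp1 and Ibsp lie near each other on chromosome 5. Ifitm5, an osteoblast membrane protein, read 8.74, 8.65 and 8.83 and then 10.10, 9.85 and 10.09. This was a rise of 2.41-fold without overlap (limma adjusted p = 8.88e-07).

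The other called bone genes changed less. Alpl, the phosphatase that frees phosphate for mineral, rose 2.17-fold. Phex, a peptidase of osteoblasts and osteocytes, rose 1.86-fold, and Col1a1, the main collagen chain of bone, rose 1.74-fold. Sp7, the transcription factor osteoblasts need, rose 1.36-fold with an adjusted p of 0.0487 by limma, close to the threshold. The call of Sp7 was lost without any 1 of the 6 arrays. Dlx5, a regulator upstream of Sp7, was 0.42 lower and was not called, and neither was Sparc, a matrix protein, at 0.24. Mepe, another mineral-related phosphoprotein of the same chromosome region, differed by -0.01. The count of called bone genes was 5 without the E14.5 replicate 3.

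Extracellular matrix genes also rose: 14 of 27 were called higher (51.9%, against 5.34% of all genes) and 1 lower, with a median of 0.33. Mfap5, a glycoprotein of elastic microfibrils, read 7.58, 7.61 and 7.57 at E13.5 and 9.21, 9.04 and 8.85 at E14.5. The ages were far apart for it, with a rise of 2.73-fold (limma adjusted p = 1.31e-08). Eln, elastin itself, rose 1.81-fold, and Col12a1, a collagen that bridges fibrils, rose 1.82-fold. Fn1, fibronectin, rose 1.50-fold and Col4a1, a basement membrane chain, rose 1.28-fold. The member called lower was Has2, which makes hyaluronan: it read 9.41, 9.34 and 9.27 and then 8.87, 8.89 and 8.87. The matrix counts were 22 higher and 2 lower with batch 2 alone.

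The cartilage and tendon lists gave calls in both directions, and the osteoclast list gave calls only upwards. Of 21 cartilage genes 1 was called higher (4.76%, against 5.34% of all genes) and 2 lower (9.52%, against 11.4%). The lower genes were Sox9 and Sox5, transcription factors of chondrocytes, at -0.67 and -0.72. The higher gene was Snorc, a cartilage proteoglycan, at 0.92. Col2a1, the main cartilage collagen, differed by -0.01 and was not called. The cartilage counts were 6 higher and 5 lower with batch 2 alone. Among 15 tendon and fibrous tissue genes 2 were called higher (13.3%) and 1 lower (6.67%). Fmod and Aspn, both small leucine-rich matrix proteins, rose by 0.90 and 1.09, and Scx, the tendon transcription factor, fell by 0.36. Averaged over its probe sets Scx was 0.22 lower and was not called. Those counts were 8 and 2 with batch 2 alone, and the higher count was 1 without E14.5 replicate 3 or E13.5 replicate 2 or 3. The lower count was 0 without E14.5 replicate 2 or 3 or E13.5 replicate 1 or 3. All 8 osteoclast genes had differences above 0, with a median of 0.32. Of them 2 were called higher (25%, against 5.34% of all genes): Mmp9, a matrix protease, at 0.76 and Dcstamp, a fusion protein, at 0.48. That count was 1 without E14.5 replicate 1 or 2 or E13.5 replicate 1.

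**Figure D2:**
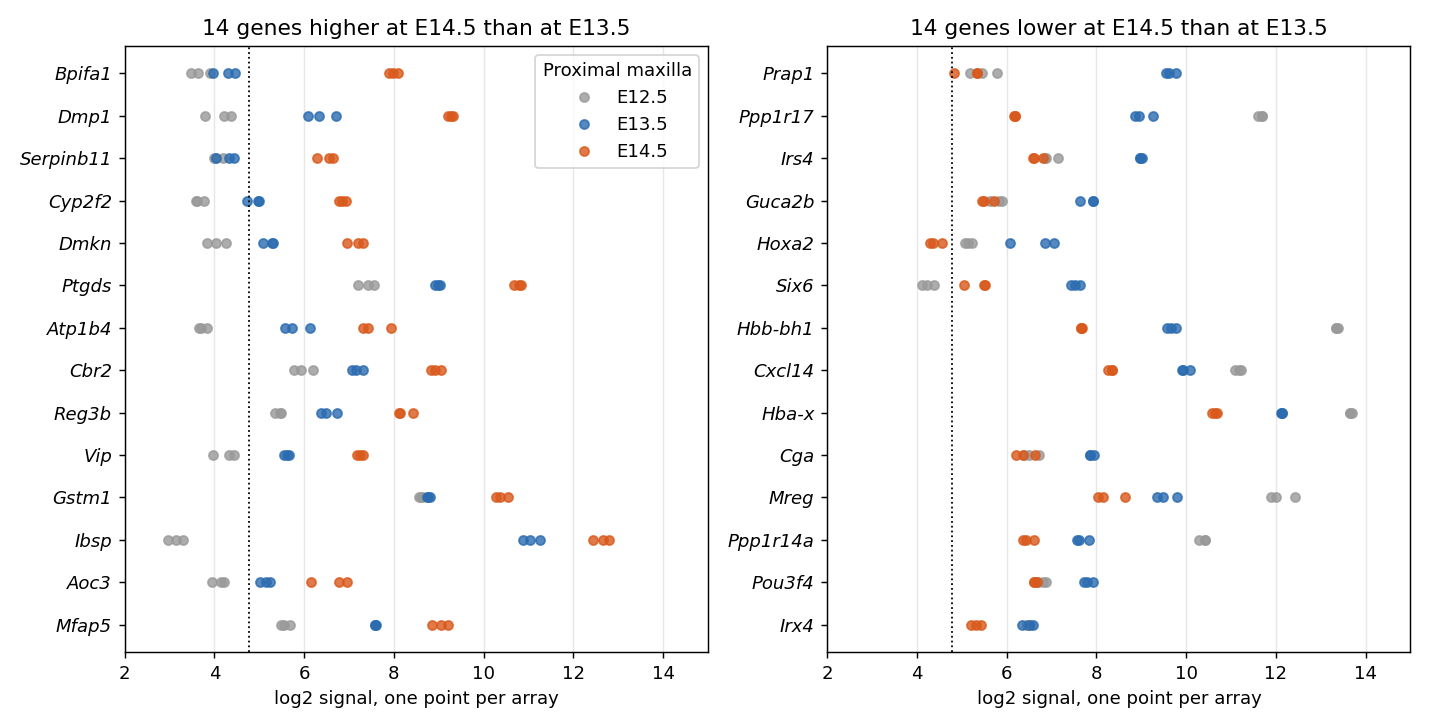
Log2 signal of each proximal maxilla array for the 14 higher and 14 lower genes named by rule, with E12.5 in grey, E13.5 in blue and E14.5 in orange; the dotted line is the floor of 4.78. For each of the 28 genes the 3 arrays of E14.5 lie apart from the 3 of E13.5, which the rule required.

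The largest rise was that of Bpifa1, a protein secreted by the upper airway lining. Its signals were 4.46, 3.97 and 4.30 at E13.5 and 7.98, 7.90 and 8.10 at E14.5. The E13.5 mean lay under the floor. Against that floor Bpifa1 was at least 9.26-fold higher at E14.5 (difference 3.75 ± 0.14, SE, n = 3, limma adjusted p = 2.33e-26). The median of the olfactory and respiratory epithelium list was 0.30. Of its 18 measured genes 7 were called higher (38.9%, against 5.34% of all genes) and 0 lower. They included Sp8 and Lhx2, transcription factors of the olfactory region, Foxj1, the regulator of motile cilia, Gnal, the olfactory G protein, and Krt8, a keratin of simple epithelia. Other markers on the list, Omp, Adcy3, Muc5b and Scgb1a1, differed by 0.05, -0.04, 0.05 and -0.05 and were not called. Over the whole list 13 differences lay above 0 and 5 below. Lhx2 read 6.21, 6.33 and 6.09 and then 7.19, 7.10 and 7.25, a rise of 1.96-fold. Sp8 read 3.98, 3.61 and 4.08 and then 5.38, 5.47 and 6.39, so the E14.5 arrays themselves spread widely. The E13.5 mean of Sp8 lay under the floor, against which it was at least 1.95-fold higher at E14.5.

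Further genes named by rule are known from epithelia or from the handling of small molecules. Cyp2f2, an airway cytochrome P450, read 4.99, 4.73 and 4.98 and then 6.78, 6.83 and 6.92, and rose 3.85-fold. Cbr2, a carbonyl reductase known from lung, read 7.32, 7.15 and 7.07 and then 9.04, 8.91 and 8.82, and rose 3.34-fold. Gstm1, a glutathione transferase, read 8.73, 8.76 and 8.81 and then 10.53, 10.37 and 10.29. It rose 3.10-fold, after a difference of only 0.17 in the day before. Each of these genes was higher on all 3 arrays of the later age, which the rule required.

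Reg3b, a secreted lectin, rose 3.26-fold, from 6.72, 6.37 and 6.49 to 8.14, 8.12 and 8.42. Ptgds, a prostaglandin D synthase abundant in meninges, rose 3.46-fold, from 8.98, 8.91 and 9.04 to 10.83, 10.78 and 10.68. Dmkn, a secreted protein of stratified epithelium, rose 3.81-fold and Serpinb11, a serpin, rose at least 3.29-fold from under the floor. Aoc3, an amine oxidase of vessels and fat, rose 2.81-fold, and Atp1b4, a relative of the sodium pump beta subunits found in muscle, rose 3.36-fold. The arrays of these 6 genes did not overlap between the ages, which the rule for naming them required.

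Among 20 surface epithelium genes 3 were called in each direction, and the median was 0.10. That is 15% each way, against 5.34% of all genes higher and 11.4% lower. Krt17, a keratin of periderm and appendages, rose 2.24-fold, and Cdh1, E-cadherin, rose 1.47-fold. Cldn6, a claudin of embryonic epithelia, fell by 0.68, Grhl3, a regulator of periderm and barrier, fell by 0.51, and Krt1, a keratin of the differentiating epidermis, fell by 0.45. With batch 2 alone 7 were higher and 5 lower.

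**Figure D3:**
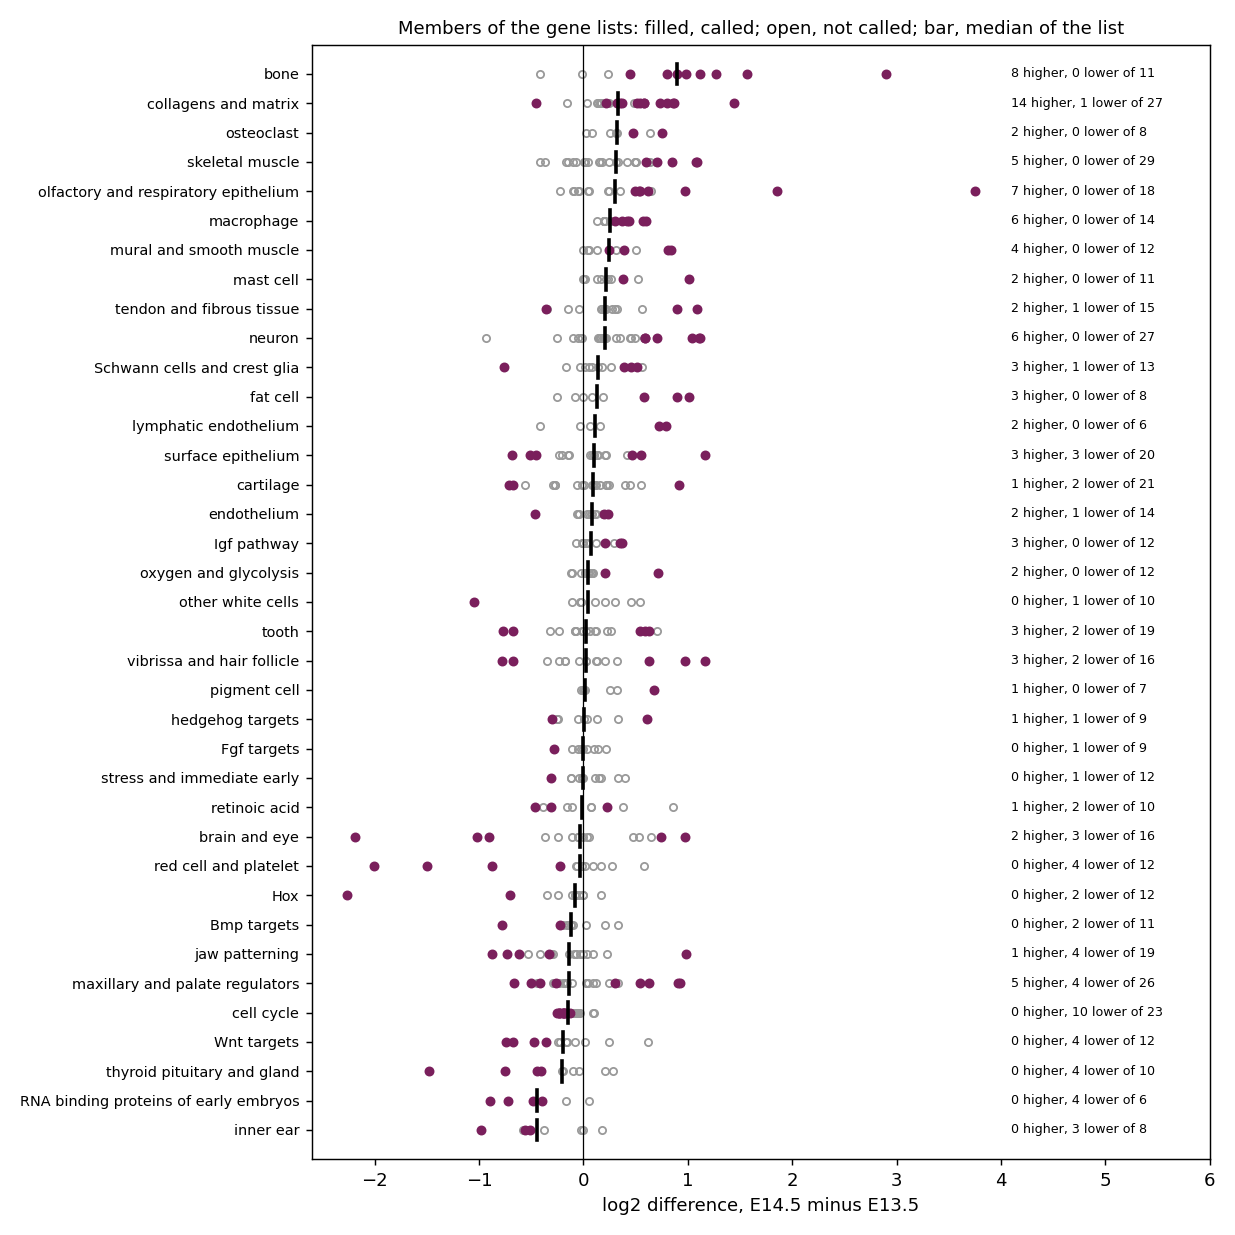
Log2 difference of every measured member of 37 gene lists, filled where called and open where not, with the list median as a bar and the counts at the right. The bone list has the highest median, 0.90, and the inner ear list the lowest, -0.44.

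Nerve genes were present at both ages. Of 27 neuron genes 6 were called higher (22.2%, against 5.34% of all genes) and 0 lower, and the median was 0.21. Tubb3, Elavl3 and Stmn2, also on that list, differed by 0.21, 0.14 and 0.22 and were not called. Tac1, among the 6, was 0.29 higher when averaged over its probe sets and was then not called. Trpv1, the heat and capsaicin channel of pain neurons, read 5.55, 5.38 and 4.66 and then 6.44, 5.92 and 6.57, a rise of 2.16-fold. Nefh, the heavy neurofilament of maturing axons, read 7.55, 7.28 and 7.18 and then 8.48, 8.41 and 8.43, a rise of 2.15-fold. Syt1, the calcium sensor of synaptic vesicles, rose 1.63-fold and Ret, a receptor for neurotrophic factors of the GDNF family, rose 2.06-fold. Neurod1, a factor of young neurons, went from between 8.76 and 9.03 to between 7.91 and 8.06. That difference of -0.93 was not called. Vip, a neuropeptide, was named by rule: it read 5.54, 5.61 and 5.66 and then 7.18, 7.25 and 7.32, and rose 3.13-fold.

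Of 29 skeletal muscle genes 5 were called higher (17.2%, against 5.34% of all genes) and 0 lower, with a median of 0.31. Ckm, muscle creatine kinase, read 6.36, 6.35 and 6.51 and then 7.45, 7.61 and 7.42, and rose 2.13-fold. Tnnt3, a fast troponin, rose 2.11-fold, and Myf6, the late myogenic factor, rose 1.80-fold. Myod1 and Myog, earlier myogenic factors, were 0.41 and 0.37 lower and were not called. The counts of both lists moved with the arrays that set the spread: with batch 2 alone 18 neuron genes were higher and 1 lower, and 17 muscle genes were higher and 2 lower. Without single arrays the muscle count was 3 for E14.5 replicates 1 and 3 and E13.5 replicates 2 and 3, and the neuron count was 4 for E14.5 replicates 2 and 3 and E13.5 replicate 3.

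The macrophage (42.9%), lymphatic endothelium (33.3%), mural (33.3%), mast cell (18.2%) and endothelium (14.3%) lists were called higher more often than all genes (5.34%). Some of these lists are short: of 6 lymphatic endothelium genes 2 were higher, Lyve1 and Reln, and 0 lower. Prox1, also of that list, was 0.42 lower and was not called. The call of Lyve1 was lost without any 1 of 5 of the 6 arrays. Of 14 macrophage genes 6 were higher and 0 lower, with all 14 differences above 0 and a median of 0.26. Csf1r, the receptor macrophages need, read 10.72, 10.77 and 10.75 and then 11.29, 11.07 and 11.12, and Mrc1, the mannose receptor, rose 1.52-fold. The macrophage count was 3 without the E13.5 replicate 3 and 10 with batch 2 alone. Of 12 mural and smooth muscle genes 4 were higher and 0 lower: Abcc9 and Rgs5, both of pericytes, rose 1.79-fold and 1.75-fold. Acta2, Pdgfrb and Notch3, also on that list, differed by 0.00, 0.04 and 0.05 and were not called. All 12 differences were above 0, with a median of 0.25. The mural count was 2 without E14.5 replicate 1 or 2 or E13.5 replicate 2, and 7 with batch 2 alone. Of 14 endothelial genes 2 were higher and 1 lower, with a median of 0.08. Cdh5, the cadherin of vessel junctions, and Kdr, a VEGF receptor, differed by 0.24 and 0.19, and Erg, an endothelial transcription factor, by -0.46. Averaged over its probe sets Cdh5 was 0.19 higher and was not called. Pecam1, an endothelial adhesion molecule, differed by 0.24 and was not called. The higher endothelial count was 1 without E14.5 replicate 1 or 3 or E13.5 replicate 3, and 4 with batch 2 alone. Of 10 genes of other white cells 0 were higher and 1 lower (10%, against 11.4% of all genes), with a median of 0.05. The lower gene, Rag1, a recombinase of lymphocytes, fell by 1.05. Of 11 mast cell genes 2 were higher and 0 lower: Cma1, mast cell chymase, rose 2.02-fold, and Kit, the receptor for stem cell factor, rose by 0.38. Averaged over its probe sets Kit was 0.19 higher and was not called. Mcpt4 and Tpsb2, further mast cell proteases, differed by 0.00 and 0.02 and were not called. Of 8 fat cell genes 3 were higher (37.5%, against 5.34% of all genes) and 0 lower. Fabp4, a fatty acid carrier also found in vessels, rose 2.02-fold. Car3, a carbonic anhydrase, rose by 0.90 and Cd36, a fatty acid transporter, by 0.58. Adipoq, adiponectin, and Cebpa, a fat cell transcription factor, differed by -0.00 and -0.25 and were not called. With batch 2 alone the mast cell count was 4.

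The largest fall was that of Prap1, a secreted acidic protein known from gut and uterus. It read 9.78, 9.61 and 9.55 at E13.5 and 5.34, 4.83 and 5.33 at E14.5, after 5.44, 5.77 and 5.19 at E12.5. Prap1 was thus high on the E13.5 arrays alone among these 9, and fell by 4.48 ± 0.43 (SE, n = 3), which is 22.3-fold (limma adjusted p = 1.08e-10). Guca2b, uroguanylin, showed the same order: 7.63, 7.93 and 7.92 at E13.5 against 5.45, 5.50 and 5.71 at E14.5 and between 5.63 and 5.89 at E12.5. Irs4, an insulin receptor substrate, read 8.96, 9.02 and 8.97 and then 6.80, 6.60 and 6.60, after 6.86 to 7.15 at E12.5. Irs4 fell by 2.32, and by 1.27 when averaged over its probe sets. Pou3f4, a factor of ear mesenchyme and brain, fell 2.26-fold, after a rise of 1.02 in the day before.

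Some pituitary and inner ear markers were also lower at E14.5. Of 10 measured genes of the thyroid, pituitary and gland list 0 were higher and 4 lower (40%, against 11.4% of all genes). The mean of the list over its genes was 5.99 to 6.13 at E13.5 and 5.69 to 5.83 at E14.5. Cga, the shared alpha subunit of pituitary hormones, read 7.85, 7.86 and 7.94 and then 6.64, 6.36 and 6.20. Lhx3, a pituitary transcription factor, read 6.34, 6.50 and 6.58 and then 5.69, 5.79 and 5.69. Pomc and Tshb, precursor or subunit of pituitary hormones, fell by 0.41 and 0.44. Six6, a factor of eye, hypothalamus and pituitary, read 7.64, 7.53 and 7.44 and then 5.50, 5.50 and 5.05, after 4.12 to 4.37 at E12.5. All 5 were higher at E13.5 than at either neighbouring age on average. Of 8 inner ear genes 0 were higher and 3 lower (37.5%, against 11.4% of all genes). These were Gata3, Tectb and Tecta, of which the last 2 encode tectorial membrane proteins. The inner ear count was 0 without E14.5 replicate 2 or E13.5 replicate 1, and 1 without E14.5 replicate 3 or E13.5 replicate 2. Coch, Otor and Fbxo2, also of the inner ear list, differed by 0.17, -0.02 and -0.01 and were not called. The part of adjoining tissue in the falls of Prap1, Guca2b, Irs4 and Pou3f4 was not tested.

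Globin genes of the first, yolk sac red cells fell. The promoters of 2 of them are shown because they fell at both intervals, with matches to CACCC, a box bound by Klf factors, in capitals.
Hba-x (chr11:32276350-32276649, plus strand): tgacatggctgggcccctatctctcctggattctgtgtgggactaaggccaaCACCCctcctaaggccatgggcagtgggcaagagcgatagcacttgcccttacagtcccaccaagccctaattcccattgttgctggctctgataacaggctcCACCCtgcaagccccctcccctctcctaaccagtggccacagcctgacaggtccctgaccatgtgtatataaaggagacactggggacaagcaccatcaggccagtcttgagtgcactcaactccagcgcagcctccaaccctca
Hbb-y (chr7:103853158-103853457, minus strand): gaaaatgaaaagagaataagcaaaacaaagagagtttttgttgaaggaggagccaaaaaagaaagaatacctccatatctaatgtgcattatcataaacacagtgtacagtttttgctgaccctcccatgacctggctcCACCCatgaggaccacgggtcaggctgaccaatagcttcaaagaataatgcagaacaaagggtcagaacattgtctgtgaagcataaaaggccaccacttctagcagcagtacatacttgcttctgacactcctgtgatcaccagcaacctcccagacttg
CACCC or its reverse complement was found 2 times in the Hba-x window and 1 time in that of Hbb-y, and 57.5% of all promoters in the table hold it. The Gata-type motif AGATAA was searched on both strands too and had 0 matches in either window, while 11.2% of all promoters hold it. These are descriptions of letters, not of binding.

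Hbb-bh1, a beta-like globin of the early embryo, read 13.37, 13.34 and 13.33 at E12.5, 9.78, 9.65 and 9.57 at E13.5 and 7.67, 7.65 and 7.66 at E14.5. It fell 4.02-fold in the last day (limma adjusted p = 7.26e-21). Hba-x, the zeta globin, read 12.12, 12.14 and 12.14 and then 10.58, 10.68 and 10.64, a fall of 2.82-fold (limma adjusted p = 1.29e-16). Hbb-y, the epsilon-like globin, read 14.52, 14.46 and 14.53 and then 14.17, 14.28 and 14.38, near the top of the signal range, and fell by 0.23. Of 12 red cell and platelet genes 0 were higher and 4 lower (33.3%, against 11.4% of all genes). The last of the 4 was Ppbp, a platelet chemokine, at -0.88. Alas2, the first enzyme of haem synthesis in red cells, differed by 0.09, and Slc4a1 and Klf1 by 0.01 and -0.02, none of them called.

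Genes of proliferation and of early embryonic growth were lower by small amounts. Of 23 cell cycle genes 0 were higher and 10 lower (43.5%, against 11.4% of all genes). The median was -0.15, with differences between -0.26 and 0.10. Mcm5 and Mcm6, parts of the replicative helicase, fell by 0.20 and 0.18, although Mcm6 averaged over its probe sets was 0.06 lower and was not called. Averaged likewise, Aurka and Mcm4, also among the 10, were 0.09 and 0.08 lower and were not called. The call of Cdk1, another of the 10, was lost under 9 of 18 alternatives. Of 6 RNA binding and chromatin proteins of early embryos 4 were lower (66.7%, against 11.4% of all genes) and 0 higher. Hmga2, a chromatin protein of growing tissue, read 11.99, 11.99 and 12.03 and then 11.18, 11.03 and 11.11, and fell by 0.90. Igf2bp1 and Igf2bp3, which bind mRNAs of growth genes, fell by 0.48 and 0.40, and Trim71 by 0.72. Ppp1r17, a phosphatase inhibitor, fell throughout: 11.59 to 11.70 at E12.5, then 9.25, 8.86 and 8.95, then 6.17, 6.18 and 6.18. Mreg and Ppp1r14a, named by rule, also fell in both intervals, by 1.26 and 1.19 in the second, and Cxcl14, a chemokine of epithelium and mesenchyme, fell 3.15-fold.

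Regulators of maxilla and palate gave calls in both directions. Of 26 measured, 5 were called higher (19.2%, against 5.34% of all genes) and 4 lower (15.4%, against 11.4%), with a median of -0.13. Tbx22, a transcription factor needed for palatal bone, read 7.05, 7.07 and 6.89 and then 7.95, 7.79 and 8.04, and rose 1.90-fold. Pax9, another palate factor, rose 1.45-fold. Shh, Tgfb3 and Mmp13 were the other higher members, but Mmp13 was under the floor at both ages, so no rise can be read for it. That leaves 4 higher members above the floor. Shh averaged over its probe sets was 0.38 higher and was not called. Wnt5a, a ligand of shelf growth and movement, read 10.55, 10.45 and 10.48 and then 9.76, 9.88 and 9.83, and fell by 0.67. Wnt11 fell by 0.42, Osr1 by 0.50 and Mn1, a regulator of shelf growth, by 0.27. With batch 2 alone 7 were higher and 10 lower. The lower count was 2 without E14.5 replicate 3 or E13.5 replicate 1 or 2. The higher count was 3 without any 1 of the 6 arrays, namely Tbx22, Pax9 and Mmp13.

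Of 19 jaw patterning genes 1 was higher (5.26%, near the share of all genes) and 4 lower (21.1%). Alx1, a factor of the frontonasal and maxillary mesenchyme, rose 1.97-fold. Pou3f3, a maxillary arch factor, read 10.57, 10.53 and 10.49 and then 9.65, 9.57 and 9.73. Prrx1, a factor of limb and facial mesenchyme, fell by 0.33, Dlx6 by 0.74 and Dlx4 by 0.62. With batch 2 alone 9 were lower. Of 12 Hox genes 2 were lower (16.7%, against 11.4% of all genes) and 0 higher. Hoxa2, which patterns the second arch, read 7.05, 6.85 and 6.08 at E13.5, 4.35, 4.29 and 4.55 at E14.5 and 5.08 to 5.22 at E12.5. Against the floor Hoxa2 was at least 3.68-fold lower at E14.5 than at E13.5. Hoxb2 fell by 0.70. The Hox count was 1 without E14.5 replicate 2 or E13.5 replicate 2. Irx4 fell by 1.16. Of 12 Wnt target genes 0 were higher and 4 lower (33.3%, against 11.4% of all genes). Over the whole list 3 differences lay above 0 and 9 below. Among the 3 was Wif1 at 0.62, which was not called. Axin2, a feedback inhibitor, fell by 0.48, Sp5 by 0.74, Lef1 by 0.67 and Nkd1 by 0.36. Nkd1 averaged over its probe sets was 0.07 lower and was not called. With batch 2 alone 1 Wnt target was higher and 8 were lower.

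Transcripts of the sex chromosomes differed between the ages without a call. Xist read 11.60, 11.67 and 11.62 at E13.5 and 12.21, 12.23 and 12.18 at E14.5, and the Y-linked Eif2s3y, Kdm5d and Uty differed by -0.95, -0.81 and -0.69. The part of the sex of the embryos in other differences was not tested.

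**Figure D4:**
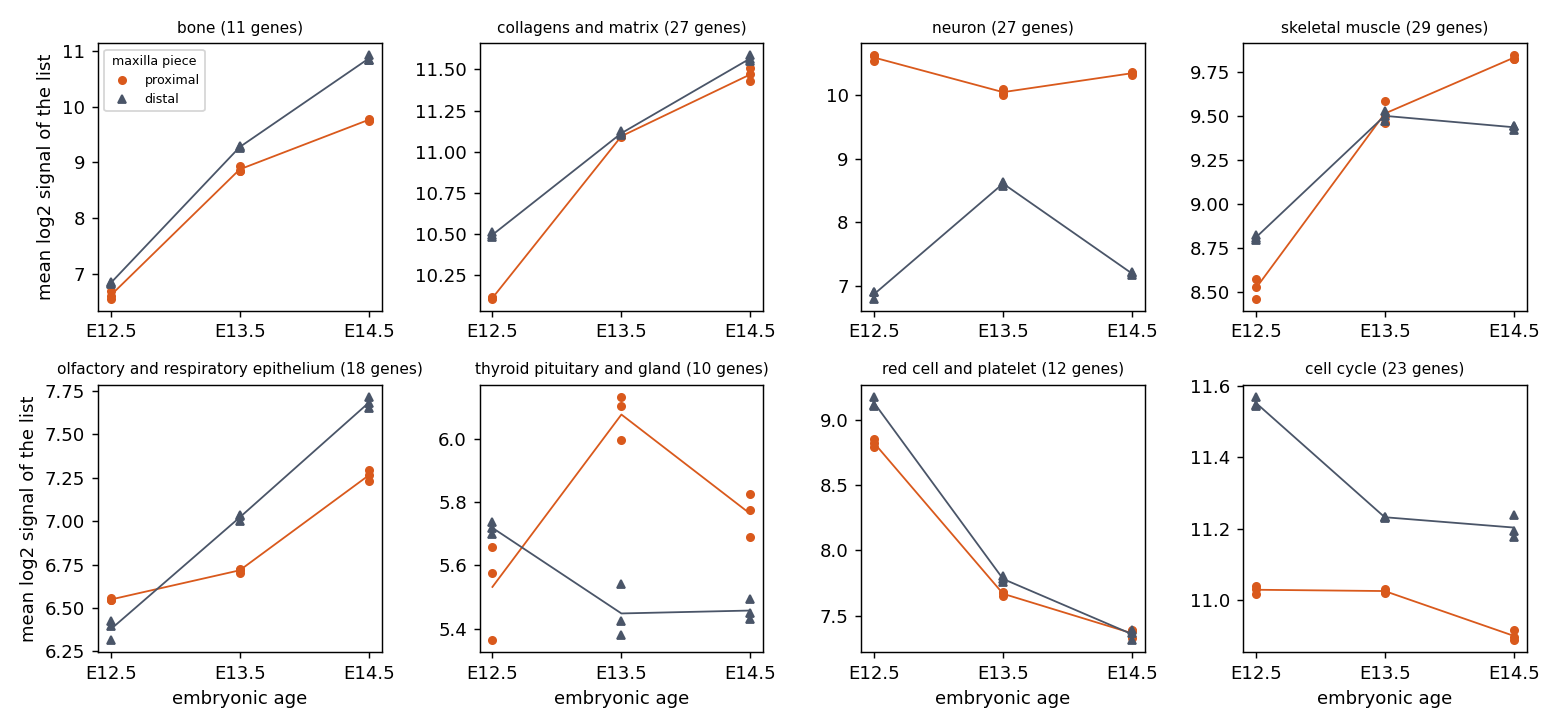
Mean log2 signal of 8 gene lists on each maxilla array against embryonic age, with proximal arrays as circles, distal arrays as triangles and lines through the means. The bone list rises in both pieces, and the neuron list is lower in the distal piece at E14.5 than at E13.5 but not in the proximal piece.

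The preceding day held more and larger changes. From E12.5 to E13.5, 6533 genes were called (35.9%), 4047 higher (22.2%) and 2486 lower (13.7%), and 564 reached 2-fold. The 2 intervals share the E13.5 arrays, so their values stand side by side only. The bone list had 9 genes higher in the earlier interval with a median of 1.54, and the cartilage list 18 of 21 with a median of 1.92. Neuron genes were mostly lower in it, 13 against 4 higher. From E12.5 to E14.5, 7747 genes were called (42.6%).

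In the distal maxilla 2832 genes were called between the same ages (15.6%), 1727 higher (9.49%) and 1105 lower (6.07%). The proximal change was set against the distal change by testing their difference. It was called for 1290 genes (7.09%), of which 548 had a higher proximal change and 742 a lower one. After another round of quantile normalization the split was 684 higher and 569 lower. Of the 27 neuron genes 18 had a higher proximal change and 0 a lower one, against 3.01% of all genes called higher. Prph, peripherin, an intermediate filament of peripheral neurons, read 12.27, 12.37 and 12.29 and then 12.80, 12.77 and 12.84 in the proximal piece, and 10.31, 10.24 and 10.21 and then 6.87, 6.91 and 7.03 in the distal piece. The changes differed by 3.81 (limma adjusted p = 5.07e-12), and that difference lay in the distal fall of 3.32. Averaged over the probe sets of Prph the changes differed by 1.26. Nefm and Nefl, the medium and light neurofilaments, differed by 3.77 and 2.98, Sncg, gamma-synuclein, by 3.71, and Ret by 3.00, or by 1.83 averaged over its probe sets.

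Dmp1, Bpifa1 and Dynlrb2 rose more in the distal piece. Dmp1 read 6.34, 5.79 and 5.94 and then 11.14, 11.30 and 11.22 there, and the proximal change was lower by 2.30. Bpifa1 went from 5.31, 5.12 and 4.97 to 10.77, 10.95 and 10.83 distally, and its proximal change was lower by 1.97; the difference of changes was -2.50 with levels under the floor set to it. Mmp13, a collagenase of bone and cartilage remodelling, stayed under the floor in the proximal piece, between 3.22 and 4.29, while distally it went from 3.57, 3.63 and 3.53 to 7.45, 7.61 and 7.11. No proximal change can be read for Mmp13: the difference of changes was -2.90, and -2.61 with levels under the floor set to it, all of it the distal rise of at least 6.1-fold. Dynlrb2, a dynein light chain of cilia, had a proximal change lower by 2.46. Krt1 fell proximally and rose distally, and 12 of 20 surface epithelium genes had a lower proximal change, against 4.08% of all genes.

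Ptgds and Reg3b went the other way. Ptgds read 7.94, 7.95 and 7.91 and then 7.95, 7.997 and 7.86 in the distal piece, and its proximal change was higher by 1.79. Reg3b read 5.62, 5.91 and 5.75 and then 5.33, 5.69 and 5.74 distally, and its proximal change was higher by 1.88. Six6 lay under 4.87 on all 6 distal arrays, and both distal means were under the floor. Its proximal change was lower by 2.59, and the difference of changes was -2.19 with levels under the floor set to it.

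**Figure D5:**
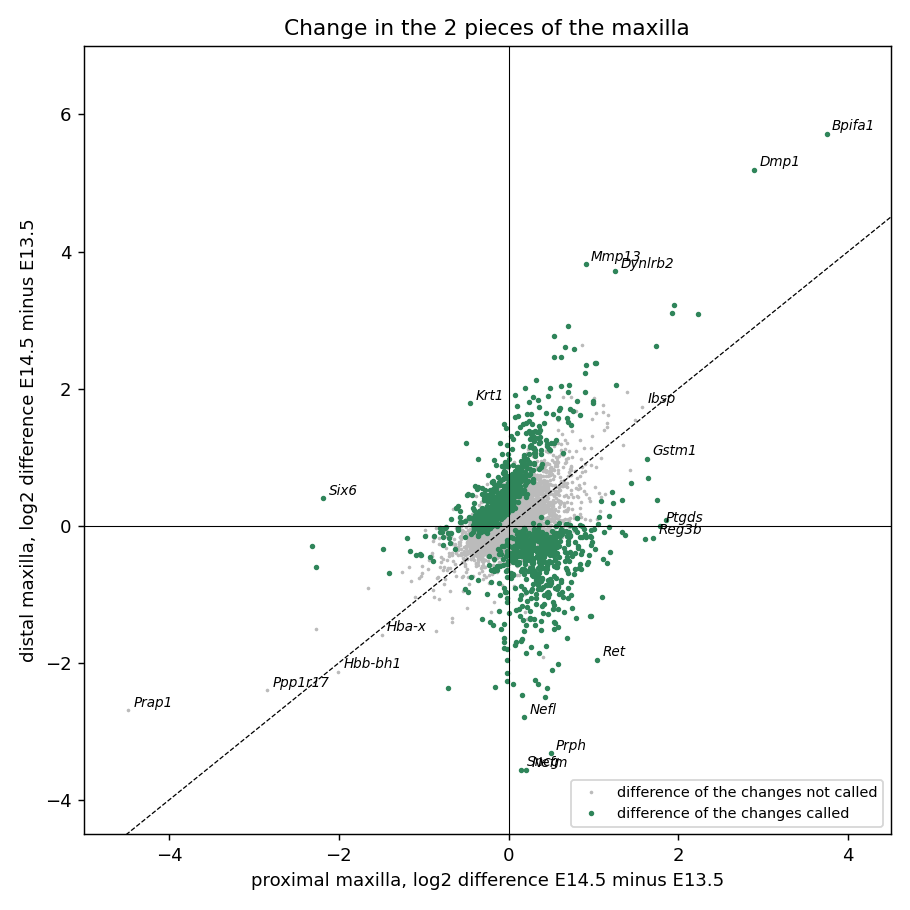
Log2 difference between E14.5 and E13.5 in the proximal maxilla (horizontal) and the distal maxilla (vertical), a point per gene, green where the difference of the changes was called; the dashed line marks equal change. Prph, Nefm, Sncg and Nefl lie at the bottom and Dmp1 and Bpifa1 above the line.

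In the proximal mandible 3898 genes were called between these ages (21.4%), 1656 higher (9.1%) and 2242 lower (12.3%). Against the proximal mandible the change differed for 1136 genes (6.24%), 614 higher in the maxilla (3.37%) and 522 lower (2.87%). Jaw and labelled batch cannot be told apart in this comparison, although each change was taken within its own batch. Dsc1 and Krt1, a desmosomal cadherin and a keratin of differentiating epidermis, rose in the mandible by 5.25 and 4.57, and the difference of changes was -5.15 and -5.02. Dsc1 lay between 3.55 and 3.79 on all 6 maxillary arrays and under the floor in the mandible at E13.5, so no maxillary change can be read for it and its mandibular rise was at least 15.3-fold. Its difference of changes was -3.94 with levels under the floor set to it, and -2.86 averaged over its probe sets. Mmp13 and Sdr16c6, a dehydrogenase, were likewise under the floor in the maxilla at both ages and in the mandible at E13.5, and rose at least 20.9-fold and at least 6.11-fold there. Their differences of changes were -4.90 and -3.76, and -4.38 and -2.61 with levels under the floor set to it. Prap1 had a maxillary change lower by 3.96. Higher maxillary changes were found for Rab3c, a vesicle protein of neurons, at 2.79, Tmem130 at 2.47, Bpifa1 at 2.45, Gpm6a, a neuronal membrane protein, at 2.44 and Igfbpl1 at 2.21. That of Bpifa1 was 2.89 with levels under the floor set to it, and that of Rab3c 1.22 averaged over its probe sets. Rab3c read 7.79, 7.62 and 7.29 and then 5.01, 5.24 and 5.27 in the mandible, where it fell, and 7.70, 7.82 and 7.72 and then 8.03, 8.23 and 8.17 in the maxilla.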

How the data were processed

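The deposited values are log2 signals that the authors made with RMA, per the submitters' processing notes; its version, and whether all 60 arrays were normalized together, are not given in the sources used here. Per the labels' protocols, 3 microgram of total RNA was labelled with biotin for each array. They were used without further normalization and ran from 2.542 to 14.812; array medians lay between 6.05 and 6.31. Of 45101 probe sets, 64 controls were left out; the platform annotation gave 34945 a single symbol, 932 several and 9160 none, and only the first were used. A gene was represented by its probe set of highest average signal across the study.

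A limma fit (version 3.58.1, R 4.3.3) with 20 group means and 40 residual degrees of freedom was tested two-sided with eBayes (variance trended on level), and p-values were adjusted over 18193 genes with the Benjamini-Hochberg method. It was tested on simulated data. The number of arrays limits the precision. The members and gene lists were chosen with earlier results of these data known. Named genes are the 14 largest called differences per direction with a mean of at least 6 in the higher group and no overlap, 5 per direction for each difference of changes, without sex-linked genes and predicted models, and up to 6 called members per list with the smallest p or the highest level; defining markers, and members of a small count, were named whatever their value. Lists are described by counts, without a set test. Alternatives were other normalizations, filters, probe set rules, array subsets, variance settings and a replicate block. Same-numbered arrays of the 2 ages had correlations of -0.07, 0.07 and -0.18 in their deviations from the group means, so the numbers were not taken as pairs. Promoters came from the RefSeq table for GRCm38.p6 by symbol; the 4 motifs given were chosen before their matches were known, and 2 others, looked for after the sequences had been read, are not reported.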

Additional observations from a re-analysis of the deposited data

Results flagged for a closer look

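Several named genes were singled out because a test found their change from E13.5 to E14.5 to differ between pieces or jaws; the values are differences of log2 changes. The proximal maxilla had the higher change against the distal maxilla for Prph (3.81), Nefm (3.77), Sncg (3.71), Ret (3.00), Nefl (2.98), Reg3b (1.88), Ptgds (1.79), Atp1b4 (1.37), Vip (0.95), Mfap5 (0.82) and Gstm1 (0.65). It had the lower change for Mmp13 (-2.90), Six6 (-2.59), Dynlrb2 (-2.46), Dmp1 (-2.30), Krt1 (-2.24), Irs4 (-2.03), Bpifa1 (-1.97), Hoxa2 (-1.66), Cyp2f2 (-1.28), Dmkn (-1.18), Cga (-1.14), Ppp1r14a (-1.01), Cbr2 (-0.89), Serpinb11 (-0.86) and Irx4 (-0.79). Against the proximal mandible the maxillary change was higher for Rab3c (2.79), Tmem130 (2.47), Bpifa1 (2.45), Gpm6a (2.44) and Igfbpl1 (2.21), and lower for Dsc1 (-5.15), Krt1 (-5.02), Mmp13 (-4.90), Prap1 (-3.96) and Sdr16c6 (-3.76). With levels under the floor of 4.78 set to it, the differences from the distal maxilla were -2.61 for Mmp13, -2.19 for Six6, -2.50 for Bpifa1, -1.77 for Hoxa2 and -1.38 for Serpinb11, and those from the mandible 2.89 for Bpifa1, -3.94 for Dsc1, -4.38 for Mmp13 and -2.61 for Sdr16c6. Mmp13, Dsc1 and Sdr16c6 were under the floor in the proximal maxilla at both ages, so their values describe the other tissue. The mandible arrays are of another labelled batch. Groups of 3 arrays were not searched for single arrays that stand apart.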

How the results depend on the processing

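The 48 named results were chosen as the largest called differences. They kept their direction and call in all 902 combinations of result and alternative that were run. Part of this was fixed in advance. The 2-fold limit reused the main fit, and with probe sets as units the same probe set stood for the gene. Averaging left genes with 1 probe set unchanged. Averaging a gene's probe sets moved 5 of the 48 results by over 1.5 times, all 5 smaller. Prph moved to 1.26, Ret to 1.83, Rab3c to 1.22, Dsc1 to -2.86 and Irs4 to -1.27. Of 145 called list members 92 were called under every alternative, 53 lost the call under at least 1, 48 of them without some array and 13 under that averaging, and 0 reversed. Without 1 array calls were lost for Sp7, Shh and Tgfb3 (any of the 6). They were lost for Krt1, Osr1 and Tshb (E14.5 replicates 1 and 3, E13.5 replicates 1 and 2). The same held for Kdr (E14.5 and E13.5 replicates 1 and 3), and for Ret and Cdk1 (E14.5 and E13.5 replicates 2 and 3). Further losses were Wnt11 (E14.5 replicate 3, E13.5 replicates 1 and 2) and Nkd1 (E14.5 replicate 2, any of E13.5). Col1a1 and Tac1 lost the call without E14.5 replicate 3, Trim71 without E13.5 replicate 2 and Cd36 without E13.5 replicate 3. Calls were also lost for the tendon, osteoclast, inner ear and Hox genes whose counts are given above. Averaging also changed Phex, Sox5, Ckm, Krt17, Pax9, Csf1r, Hbb-y, Fabp4, Lhx3, Col12a1, Reln and Car3 by over 1.5 times with their calls kept. Counts of called genes moved more. With array quality weights, whose fit stopped before it converged, 2622 genes were higher and 4594 lower at E14.5, and the differences from the distal maxilla and the mandible numbered 4755 and 2446. A limit of 2-fold left 57 higher and 25 lower genes, 564 from E12.5 to E13.5, 888 from E12.5 to E14.5, and 272 and 299 differences of change. With batch 2 alone 1540 genes were higher and the distal maxilla differed for 2504; with only the arrays compared it differed for 2173. With all 34945 probe sets as units 10260 and 13038 were called from E12.5 to E13.5 and to E14.5. Without single arrays the higher count ranged from 663 to 819 and the lower from 1251 to 2043, and the differences of change from 898 to 1338 and from 944 to 1072. The replicate block gave 954 higher and 2077 lower over all arrays, and over the arrays compared 1311 lower and 2055 differences from the distal maxilla. Of the list medians 656 moved by less than the spread and 28 by more. The causes were not tested. No fit within batch 2 exists for the mandible, which lies in batch 1. Signals under the floor of 4.78 limit the folds of Bpifa1, Serpinb11, Hoxa2 and Sp8, and the differences of change of Bpifa1, Serpinb11, Hoxa2, Six6, Mmp13, Dsc1 and Sdr16c6.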
